A study of Homo sapiens with 8 samples.

Results

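The 39 genes described here encode enzymes of glycolysis, gluconeogenesis, the pyruvate dehydrogenase complex and the tricarboxylic acid (TCA) cycle. The rule that selects them goes by gene name and holds no measured value, although the pathway was picked with earlier results of these data known. All 39 were found among the 26830 gene symbols of the deposited table. They were read in 8 libraries from 4 cultures of a single Cas9-carrying clone labelled HEK293T, an established human embryonic kidney line. Cas9 is the nuclease that a guide RNA directs to its target. The control culture carried the guide sgNS (n = 1), and each of the other 3 cultures received a different lentiviral guide to METTL16, named sgMETTL16-1, sgMETTL16-2 and sgMETTL16-3. METTL16 is an RNA methyltransferase of U6 small nuclear RNA and MAT2A mRNA. All cultures were grown with blasticidin (10 µg/ml) and puromycin (2 µg/ml) for 1 week or longer and received cycloheximide (100 µg/ml, 5 min), which halts ribosomes on mRNA. Every culture gave input RNA and ribosome footprints (17 to 34 nt), and the study asked how METTL16 affects translation. Measurements are in TPM, which divide by transcript length and sum to a fixed total. Input levels can therefore be compared between genes, but absolute amounts cannot be read from them. Footprints come from translated parts, so comparing them between genes also depends on how much of each transcript is translated, which was not measured. Where 4 values are given in culture order, that order is sgNS, sgMETTL16-1, sgMETTL16-2, sgMETTL16-3, and 3 values for sgMETTL16 follow the same order. In bulk RNA, fewer cells of a type and less RNA per cell cannot be told apart.

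Glycolysis splits glucose into pyruvate in the cytosol, with kinases at its entry, middle and last steps as its main points of control, and lactate dehydrogenase (LDHA) regenerates the NAD+ it consumes. Pyruvate enters mitochondria, where the pyruvate dehydrogenase complex makes acetyl-CoA and the TCA cycle oxidises it. Liver and kidney can run the path backward: pyruvate carboxylase (PC), the PEP carboxykinases (PCK1 in the cytosol, PCK2 in mitochondria) and fructose bisphosphatase (FBP1) bypass the one-way steps. Many steps have isozymes with tissue preferences, such as PKLR in liver and red cells against PKM elsewhere.

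The libraries bear on every value below. Each of the 12 hepatocyte markers reached 10 TPM in all 4 inputs. By mean input the lowest was FGB, at 17.65 to 64.16 TPM, and the highest APOA2, at 1797 to 2687 TPM. The 9 HEK293 markers with a row were mixed. KRT8 and KRT18 were high, at 354 to 796 and 309 to 537 TPM in the inputs, and NES and CDH2 were at 6.13 TPM or more. PAX2 stayed under 1 TPM, and NEFL, NEFM and SOX11 were listed at 0 in all 8 libraries. VIM was listed at 0 in the inputs but at 43.3 to 188 TPM in the footprints. Whether its input or its footprints reflect its expression was not tested, so an input value of 0 is not read here as silence. Of the 6 markers of kidney proximal tubule, 5 were under 1 TPM in all inputs. All 12 hepatocyte markers thus reached 10 TPM in every input, against 2 of the 9 HEK293 markers, KRT8 and KRT18. Of these 9, 5 were under 1 TPM in every input. The hepatocyte markers are not those of the labelled cell line, whose identity was not tested. Protein-coding genes held 20.3% of TPM in the sgNS input and 25.4%, 26.3% and 20.1% in the sgMETTL16 inputs. In the footprints they held 26.9%, 26.8%, 28.2% and 11.9% in culture order. From 20095 to 22468 genes were listed at 0 in a footprint library. Read totals were not used here, so depth is unknown and no counting interval is given. METTL16 itself, at the RNA level, was at 5.31, 4.72, 5.25 and 4.16 TPM in the inputs in culture order, and its footprints were at 19.8 TPM in sgNS and listed at 0 in the other 3 cultures. An edit that breaks a reading frame need not lower input RNA, so the input checks the labels only in part. Among genes called in the footprint comparison below, 543 were listed at 0 in all 3 sgMETTL16 libraries. The METTL16 footprint values are therefore no check of the guides.

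The enzymes were present in every input library, and glycolytic transcripts were the most abundant. GAPDH, which makes NADH at the middle of glycolysis, was the highest: it stood at 1002 TPM in sgNS, against 1261, 1191 and 1119 TPM in sgMETTL16. Enolase 1 (ENO1), aldolase A (ALDOA) and triosephosphate isomerase (TPI1) followed, with means over the 4 inputs of 475, 464 and 307 TPM. The lowest were FBP1, PFKP and PFKM, with means of 0.108, 0.46 and 0.935 TPM. Together the 39 transcripts held 1.44% of protein-coding TPM in the sgNS input and 1.57%, 1.45% and 1.66% in the sgMETTL16 inputs. In the footprints they held 1.97% in sgNS and 1.69%, 1.77% and 1.65% in sgMETTL16. The pyruvate dehydrogenase subunits were far lower than the glycolytic enzymes, with summed inputs of 24.3, 40.6, 50.3 and 21.5 TPM in culture order.

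**Figure D1:**
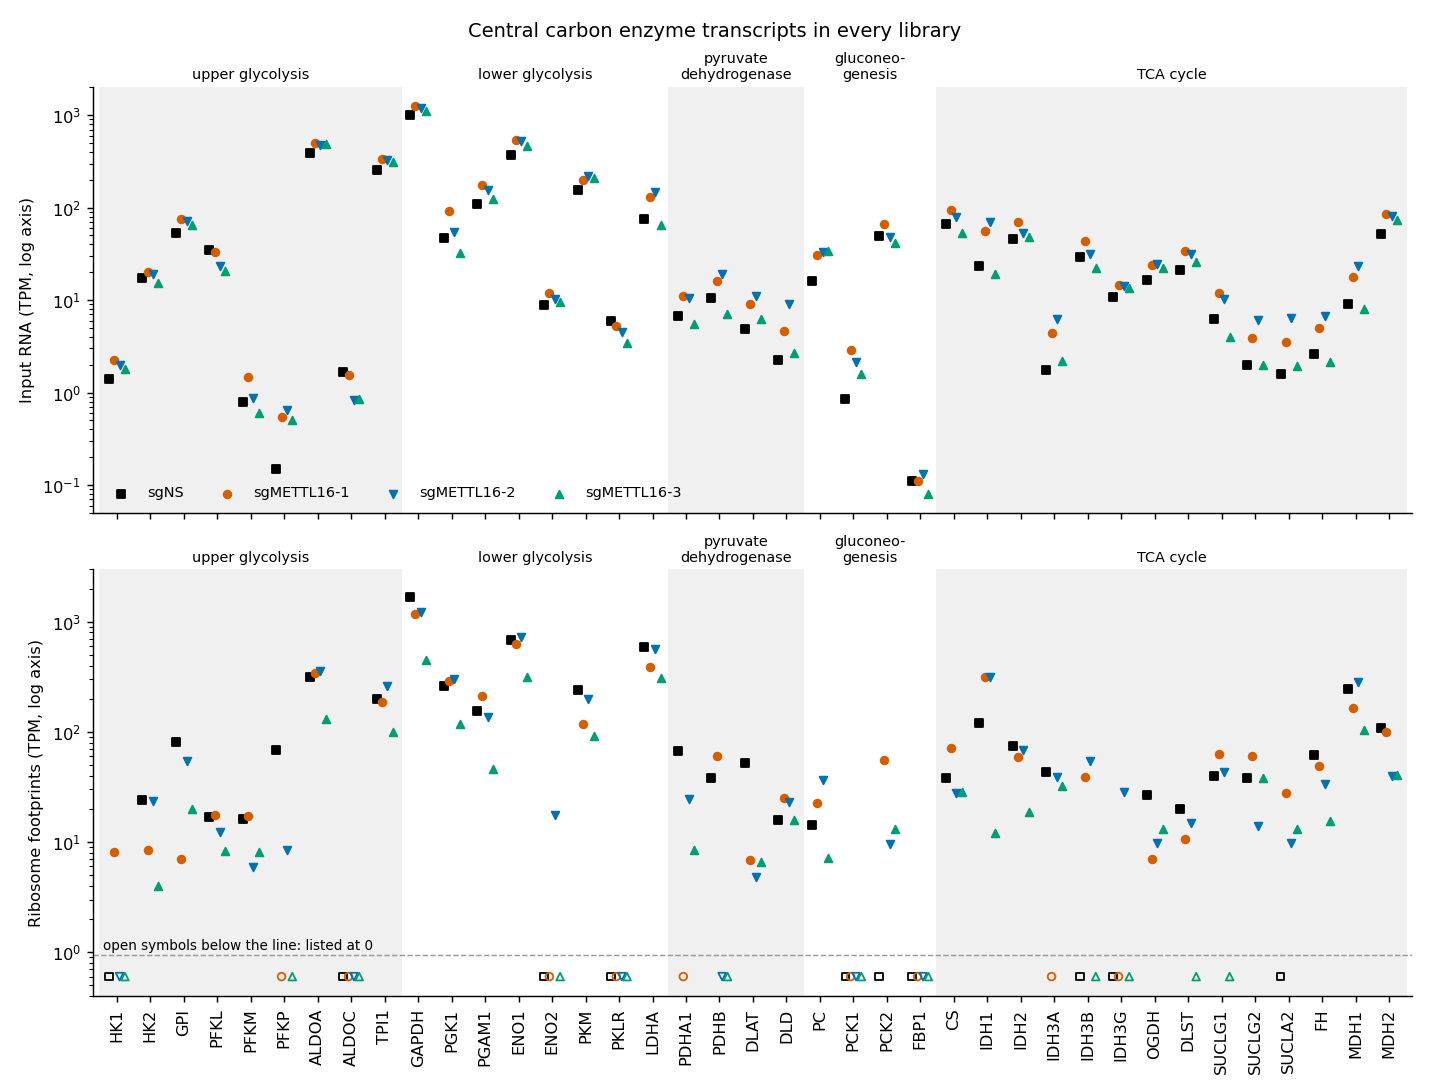
TPM of the 39 enzyme transcripts in the 4 input libraries (upper panel) and the 4 footprint libraries (lower panel) on log axes, 1 symbol per library, grouped by role. All 39 enzymes are above 0 in every input, while open symbols mark footprint values listed at 0, from 6 enzymes in sgMETTL16-2 to 12 in sgMETTL16-3.

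In the input 1 isozyme dominated among phosphofructokinases, aldolases, enolases, pyruvate kinases and PEP carboxykinases, and HK2 exceeded HK1. Hexokinase 2 (HK2), the glucose-phosphorylating isozyme common in proliferating cells, stood at 17.4, 20.2, 19.4 and 15.4 TPM in culture order. HK1 was at 1.40, 2.23, 1.97 and 1.78 TPM, so that HK2 was from 8.67 to 12.4 times as abundant. Among phosphofructokinases, the committing step of glycolysis, the liver subunit PFKL was from 22.3 to 43.6 times as abundant as the muscle subunit PFKM, and PFKP did not exceed 0.64 TPM. ALDOA exceeded ALDOC by at least 233 times.

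Pyruvate kinase, the last step, was represented mainly by PKM, at 156, 201, 222 and 210.1 TPM in culture order. The liver and red cell gene PKLR was at 5.93, 5.26, 4.48 and 3.43 TPM. PKM was 26.2 times PKLR in sgNS and 38.2, 49.5 and 61.3 times in the sgMETTL16 inputs. ENO1 was from 41.2 to 50.2 times ENO2. Mitochondrial PCK2 stood at 49.99, 66.1, 48.7 and 41.1 TPM and cytosolic PCK1 at 0.85, 2.89, 2.12 and 1.57 TPM, so the PCK2 to PCK1 ratio was 58.8 in sgNS and 22.9, 22.9 and 26.2 in sgMETTL16. All 3 sgMETTL16 cultures thus had a higher PKM to PKLR ratio and a lower PCK2 to PCK1 ratio than the lone control, on genes whose own changes did not pass the test below. GAPDH has 65 pseudogenes and PGAM1 13 in RefSeq by name, of which 0 and 1 are among the deposited symbols. TPI1 has 2 such copies among them and DLST 1. Reads of near-identical copies can be assigned to the wrong one, so these genes' values are uncertain to an unknown extent.

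The input comparison asked which of these transcripts differed between sgMETTL16 (n = 3) and sgNS (n = 1). It was fitted with limma on log2(TPM + 1) over all genes with a mean of 1 TPM or more, each library centred on its median gene, with Benjamini-Hochberg adjustment and a threshold of 0.05. PFKM, PFKP and FBP1 fell under that filter. None of the 36 enzymes tested passed, where 2.83% of the 10967 genes did (310), 1.58% higher and 1.25% lower. An unadjusted p under 0.05 was found for 3 of the 36 enzymes and for 1226 of the 10967 genes. Changes of genes with few TPM come out too small on this scale. The fit gives the lone control the spread of the sgMETTL16 cultures, pooled over genes of like level. With these settings limma took each gene's variance from the trend over all genes, not from that gene's own cultures. Because each culture has its own guide, culture and guide cannot be told apart in these p-values.

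The 3 enzymes nearest to a call were all lower and all are glycolytic. PFKL was at 34.4 TPM in sgNS, against 32.8, 23.2 and 20.9 TPM in sgMETTL16 (25.6 ± 6.29, SD, n = 3). Every sgMETTL16 culture lay below the control. The fitted log2 change on the centred scale was -0.97 (SE 0.39, limma adjusted p = 0.224). On TPM as deposited no tested enzyme had a change below -0.44, so part of this size comes from the centring. PKLR had a log2 change of -0.91 (SE 0.36, limma adjusted p = 0.21), with the values given above. ALDOC, the aldolase prominent in brain, was at 1.68 TPM in sgNS, against 1.55, 0.83 and 0.85 TPM in sgMETTL16. Its log2 change was -0.91 (SE 0.29, limma adjusted p = 0.0544). These 3 were the only tested enzymes below the control in all 3 sgMETTL16 inputs on TPM as deposited, against 5.37% of all tested genes. Without sgMETTL16-3, PFKL and ALDOC passed (limma adjusted p = 0.0157 and 0.0332), and PFKL also passed with a filter at a mean of 10 TPM (adjusted p = 0.0386). Without sgMETTL16-1 the adjusted p was 1 for PFKL and PKLR and 0.454 for ALDOC.

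The 250 bases before the annotated starts of these 3 genes are shown because they were the enzymes nearest to a call (RefSeq, GRCh38.p14, 5′ to 3′ on the gene's strand). The PKLR start in that table lies inside the full span of the gene. Capitals mark matches on either strand to 5 motifs. The first, ACGTG, is a core of the hypoxia response element bound by HIF proteins. A second such core is spelled GCGTG in these promoters. The E-box is spelled CACGTG and therefore always overlaps the first core. The core of the cAMP response element is spelled ACGTCA here. The GC box, the site of Sp factors, is spelled GGGCGG in this search.
PFKL, chr21:44299803-44300052 (plus strand): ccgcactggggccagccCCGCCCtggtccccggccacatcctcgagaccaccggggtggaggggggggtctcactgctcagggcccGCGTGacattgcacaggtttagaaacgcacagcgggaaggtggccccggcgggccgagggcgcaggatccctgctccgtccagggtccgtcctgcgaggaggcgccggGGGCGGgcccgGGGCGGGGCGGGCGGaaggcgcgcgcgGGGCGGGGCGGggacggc
ALDOC, chr17:28576896-28577145 (minus strand): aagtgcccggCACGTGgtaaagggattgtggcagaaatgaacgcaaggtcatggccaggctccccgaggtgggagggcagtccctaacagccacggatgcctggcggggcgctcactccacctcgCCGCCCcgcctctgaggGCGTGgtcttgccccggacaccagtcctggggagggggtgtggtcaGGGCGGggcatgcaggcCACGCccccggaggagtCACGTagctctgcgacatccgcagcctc
PKLR, chr1:155301439-155301688 (minus strand): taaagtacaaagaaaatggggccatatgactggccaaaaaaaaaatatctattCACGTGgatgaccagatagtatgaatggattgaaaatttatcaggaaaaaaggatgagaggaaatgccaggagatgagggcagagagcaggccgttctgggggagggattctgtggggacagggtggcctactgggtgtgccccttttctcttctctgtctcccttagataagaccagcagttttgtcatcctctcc
The windows differed in composition, at 78% G or C for PFKL, 68.4% for ALDOC and 46% for PKLR. PFKL held 7 GC box matches, overlapping ones included, and 1 GCGTG. An E-box was found in ALDOC and in PKLR but not in PFKL, and GCGTG in PFKL and ALDOC but not in PKLR. Over the 37 enzymes with a promoter in the table, ACGTG was found in 14 (37.8%), against 20.8% of 15843 protein-coding promoters. CACGTG was found in 5 (13.5%, against 7.84%), ACGTCA in 7 (18.9%, against 8.67%), GCGTG in 16 (43.2%, against 39.2%) and GGGCGG in 23 (62.2%, against 56%). A match describes letters in a window and is no evidence of binding.

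No role group had a member past the threshold, and the signs of the centred changes were as follows. All 7 tested enzymes of upper glycolysis lay below 0, with a median log2 change of -0.21, and all 8 of lower glycolysis did, with a median of -0.19. Of all 10967 genes 57% lay below 0, and their median was -0.06. Of the 14 TCA cycle enzymes 7 were above 0 and 7 below (median 0.00), and of the 4 pyruvate dehydrogenase genes 2 were above. Over the 36 enzymes the median was -0.15, with 11 above 0 and 25 below. On TPM as deposited, which moves the median gene to 0.46, 33 of the 36 were above 0 with a median of 0.38, so the signs rest on the centring. Rescaled to protein-coding genes, 38 enzymes entered the fit and 29 were above 0, with a median of 0.20 against 0.31 for all genes.

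**Figure D2:**
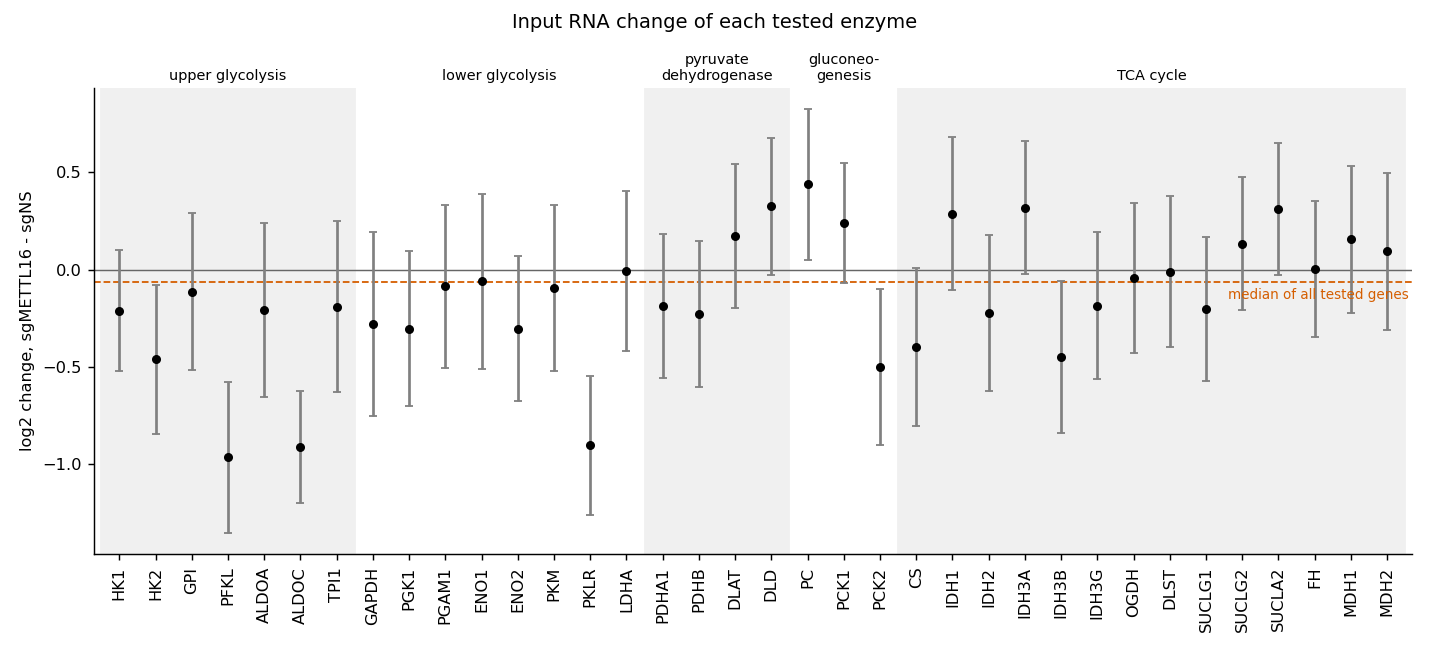
Fitted log2 change of input RNA, sgMETTL16 minus sgNS, on centred log2(TPM + 1) for the 36 tested enzymes, with bars of 1 standard error; the dashed line is the median of all tested genes (-0.06). The points for PFKL, ALDOC and PKLR lie lowest, at -0.97, -0.91 and -0.91, and no enzyme passed the threshold.

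Among enzymes of gluconeogenesis, PC had the largest positive change of the tested enzymes, without passing. It stood at 16.2 TPM in sgNS, against 30.6, 33.3 and 34.2 TPM in sgMETTL16. Its 3 sgMETTL16 values lay close together (32.7 ± 1.86, SD, n = 3). All were above the control, as for 64.1% of all tested genes on TPM as deposited. The centred log2 change was 0.44 (SE 0.39, limma adjusted p = 0.815). The smallest p after PFKL belonged to PCK2, HK2 and IDH3B, a regulatory subunit of the NAD-dependent isocitrate dehydrogenase. Their log2 changes were -0.50, -0.46 and -0.45 (limma adjusted p from 0.766 to 0.805). IDH3B was at 29.6 TPM in sgNS, against 43.3, 31.7 and 22.2 TPM in sgMETTL16, so its groups overlapped, as did those of PCK2 and HK2, whose values stand above.

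The sgMETTL16 inputs also differed among themselves, by over 3 times for IDH1, DLD, SUCLA2, FH and SUCLG2. IDH1, the cytosolic NADP-dependent isocitrate dehydrogenase, stood at 23.5 TPM in sgNS, against 55.4, 69.6 and 19.3 TPM in sgMETTL16. The sgMETTL16-3 value was below the control and the other two above it. Dihydrolipoamide dehydrogenase (DLD), a subunit shared by the pyruvate and 2-oxoglutarate dehydrogenase complexes, was at 2.26, 4.60, 9.02 and 2.65 TPM in the same order. SUCLA2, the ATP-forming subunit of succinyl-CoA ligase, was at 1.58, 3.56, 6.34 and 1.94 TPM, and its GTP-forming counterpart SUCLG2 at 1.98, 3.89, 6.14 and 2.00 TPM. In all 4 genes sgNS and sgMETTL16-3 were low and sgMETTL16-2 was highest.

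In 14 of 14 TCA cycle genes and 4 of 4 pyruvate dehydrogenase genes, sgMETTL16-1 and sgMETTL16-2 were both above sgNS and sgMETTL16-3. In upper glycolysis this was so for 4 of 7 tested genes and in lower glycolysis for 6 of 8, against 72.2% of all tested genes. The highest sgMETTL16 input exceeded the lowest by a median of 2.38 times over the TCA cycle genes, 1.34 times over lower glycolysis and 1.25 times over upper glycolysis, with 1.63 times over all tested genes. The share of protein-coding TPM moved with this order (25.4% and 26.3% against 20.3% and 20.1%). Summed hepatocyte markers did too, at 5668 TPM in sgNS and 9499, 10043 and 6258 TPM in the sgMETTL16 inputs. Rescaled to the protein-coding TPM of each library, the order held for 7 of 14 TCA cycle genes, all 4 pyruvate dehydrogenase genes, 1 of 8 in lower and 0 of 7 in upper glycolysis, against 42.1% of all tested genes. The median ratio of highest to lowest was then 1.84, 1.84, 1.22 and 1.27 for these 4 groups and 1.43 over all tested genes. The part of the marker levels in this order was not tested.

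The same order was seen in other members. CS stood at 67.3, 93.7, 80.1 and 53.2 TPM in culture order, and the mitochondrial isocitrate dehydrogenase IDH2 at 45.4, 69.2, 53.6 and 48.1 TPM. SUCLG1, the subunit common to both succinyl-CoA ligases, was at 6.17, 11.8, 10.3 and 4.02 TPM, and FH (fumarase) at 2.64, 4.98, 6.71 and 2.16 TPM. In glycolysis it was seen for PGK1, which makes the first ATP of the pathway, at 46.6, 91.5, 54.3 and 32.7 TPM. LDHA was at 74.9, 132, 147 and 64.4 TPM, and phosphoglycerate mutase 1 (PGAM1) at 111, 176, 157 and 124 TPM. TPI1, by contrast, differed little among the sgMETTL16 inputs, at 256 TPM in sgNS, against 332, 325 and 315 TPM, as did ALDOA, at 391 TPM in sgNS, against 496, 481 and 487 TPM.

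Within the mitochondrial complexes the subunits were unequal. PDHA1 and PDHB, which form the pyruvate-decarboxylating part, were at 6.70 and 10.4 TPM in sgNS, and DLAT, the acetyl-transferring core, at 4.91 TPM. In sgMETTL16-1, sgMETTL16-2 and sgMETTL16-3, PDHA1 was at 11.1, 10.7 and 5.58 TPM, PDHB at 15.9, 19.4 and 7.01 TPM and DLAT at 8.98, 11.2 and 6.28 TPM. Of the NAD-dependent isocitrate dehydrogenase, the catalytic subunit IDH3A was at 1.77, 4.40, 6.17 and 2.20 TPM in sgNS and the sgMETTL16 inputs, and IDH3G, a regulatory subunit, at 10.9, 14.6, 14.1 and 13.5 TPM. The IDH3B to IDH3A ratio was 16.7 in sgNS and 9.84, 5.14 and 10.1 in sgMETTL16. OGDH and DLST, 2 parts of the 2-oxoglutarate dehydrogenase complex, lay closer, at 16.6 and 20.9 TPM in sgNS and between 22.4 and 34.2 TPM in the sgMETTL16 inputs.

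Footprints of the enzymes were sparse. Of the 39, 23 were above 0 in all 4 footprint libraries, 12 in some, and ALDOC, PKLR, PCK1 and FBP1 in none. Genes above 0 in 2 footprint libraries often shared 1 ratio: 1.89 between sgNS and sgMETTL16-1, 2.73 for sgMETTL16-2 and 2.01 for sgMETTL16-3. Genes with equal read numbers would share such a ratio. After scaling by it, 17 of the 32 enzymes above 0 in at least 2 libraries stood in ratios of whole numbers up to 6, within a relative tolerance of 0.03. PFKM footprints were at 16.2, 17.1, 5.93 and 8.07 TPM in culture order, which is 1 to 2 to 1 to 1 on that scale. PFKL, at 16.7, 17.7, 12.3 and 8.34 TPM, stood at 1 to 2 to 2 to 1. How often other genes meet this rule was not counted, and a ratio does not fix a number of reads. A footprint value of the TCA cycle or pyruvate dehydrogenase genes may stand for a handful of reads, but this was not tested. Their folds are imprecise to an unknown degree.

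The footprint comparison found no enzyme past the threshold among the 35 tested (limma on footprints scaled to the median ratio over genes above 0 in all 4 libraries). Of these enzymes 3 had an unadjusted p under 0.05, as did 1152 of all 9297 genes. Of all 9297 genes 6.54% passed, 0.699% higher and 5.84% lower, but of these 608 genes 64 were listed at 0 in sgNS and 543 in all 3 sgMETTL16 libraries. The median over the 35 enzymes was 0.02, with 19 above 0, against 0.89 over all genes. On TPM as deposited 9 of the 35 were above 0, so the signs rest on the scaling. SUCLA2 had the smallest p: it was listed at 0 in sgNS and stood at 28.0, 9.71 and 13.2 TPM in sgMETTL16 (limma adjusted p = 0.213). PCK2 was also listed at 0 in sgNS and stood at 55.1, 9.55 and 13.0 TPM in sgMETTL16 (adjusted p = 0.352, limma). Against a value of 0 no fold is given.

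DLAT went the other way, at 52.4 TPM in sgNS, against 6.92, 4.80 and 6.53 TPM in sgMETTL16 (limma log2 change -2.39, SE 0.68, adjusted p = 0.357). The 4 DLAT values were in the ratio 4 to 1 to 1 to 1 on the scale of equal reads. PFKP was at 68.6 TPM in sgNS, at 8.38 TPM in sgMETTL16-2 and at 0 in the other two, although its input was at 0.15 TPM in sgNS (limma adjusted p = 0.644). DLD, at 15.8, 25.0, 23.1 and 15.7 TPM, had a log2 change of 0.90, and PDHA1, at 67.7, 0, 24.8 and 8.44 TPM, had one of -2.88 (limma adjusted p = 0.695 for each). Among abundant glycolytic footprints, ENO1 was at 682, 624, 730.1 and 314 TPM, a log2 change of 0.17 (SE 0.31), and LDHA at 593, 388, 569 and 310.01 TPM, a log2 change of 0.01 (SE 0.37). In both, sgMETTL16-3 was lowest, the library in which protein-coding genes held 11.9% of TPM.

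Translation efficiency, the footprint change minus the input change, passed for none of the 33 enzymes tested (limma interaction over all 8 libraries). An unadjusted p under 0.05 was seen for 3 of them and for 952 of all 8002 genes. Of all 8002 genes 0.737% passed (59, or 0.55% higher and 0.187% lower), all of them listed at 0 in sgNS or in all 3 sgMETTL16 footprint libraries, and with the culture as a replicate block 0 did. PCK2 came first (limma adjusted p = 0.129), then SUCLA2 (0.219) and DLAT (0.35), the same 3 genes as in the footprints. With a pseudocount of 0.1 PCK2 passed (limma adjusted p = 0.0281). PFKL, IDH3B and citrate synthase (CS) followed, each with an adjusted p of 0.805 by limma. The median over the 33 enzymes was 0.10 on the log2 scale, with 18 above 0 and 15 below, against a median of 0.71 over all 8002 genes. On TPM as deposited 7 were above 0 and 26 below.

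The enzymes differed from one another in how their footprint share related to their input share. MDH1, the cytosolic malate dehydrogenase, was at 8.97, 17.6, 23.2 and 8.09 TPM in the inputs, in culture order. Its footprints were at 245, 166, 282 and 105 TPM, or 27.3, 9.43, 12.1 and 12.9 times the input. Mitochondrial MDH2 was at 51.4, 85.1, 80.6 and 73.5 TPM in the inputs and at 108, 99.6, 39.5 and 40.3 TPM in the footprints. MDH2 therefore had the higher TPM of the 2 in every input and the lower TPM in every footprint library.

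A fit of footprint against input libraries (4 each, limma, scaled to the median ratio over the 1785 protein-coding genes above 0 in all 8) called 15 of 33 tested enzymes, 4 higher and 11 lower in footprints. Of all 8002 genes 29.3% were called, 2.99% higher and 26.3% lower. On this scaling 80.2% of all genes lay below 0, with a median log2 difference of -1.32. The median over the 33 enzymes was -1.14. MDH1 had the smallest p, with a log2 difference of 2.84 (SE 0.42, limma adjusted p = 0.00584). SUCLG2 (2.25), FH (2.13) and LDHA (1.26) were the other higher enzymes, with limma adjusted p from 0.0204 to 0.031. FH footprints were at 61.6, 48.8, 33.9 and 15.4 TPM and SUCLG2 footprints at 38.0, 60.2, 13.9 and 37.9 TPM in culture order, all above the inputs of the same cultures. PGK1 missed the threshold, with a log2 difference of 1.18 (SE 0.40, limma adjusted p = 0.0526). The lower ones were IDH3G (-3.16), PCK2 (-3.11), ENO2 (-2.97), DLST (-2.78), GPI (-2.07), PFKL (-1.86), CS (-1.78), ALDOA (-1.71), TPI1 (-1.71), PKM (-1.28) and GAPDH (-1.08), with limma adjusted p from 0.0146 to 0.0464. PKM and GAPDH, though called lower, lay above the median of all genes. GPI interconverts the phosphates of glucose and fructose, and CS starts the TCA cycle. ENO2 and IDH3G were listed at 0 in 3 footprint libraries and PCK2 and DLST in 1, so the sizes of their differences depend on the pseudocount.

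On TPM as deposited the split was 4 higher and 0 lower, with the same 4 genes called higher, and 194 higher and 346 lower over all genes, with the median over the enzymes moving from -1.14 to -0.22. With the culture as a replicate block 7 of the 33 were called, 1 higher (MDH1) and 6 lower, and FH, SUCLG2 and LDHA had a limma adjusted p of 0.0526, 0.0593 and 0.0601. Without sgMETTL16-1 or sgMETTL16-2 none was called, and without sgMETTL16-3 or without sgNS only MDH1 was (limma adjusted p = 0.0293 and 0.0266). The direction of MDH1, SUCLG2, FH and LDHA was the same in all of these settings.

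**Figure D3:**
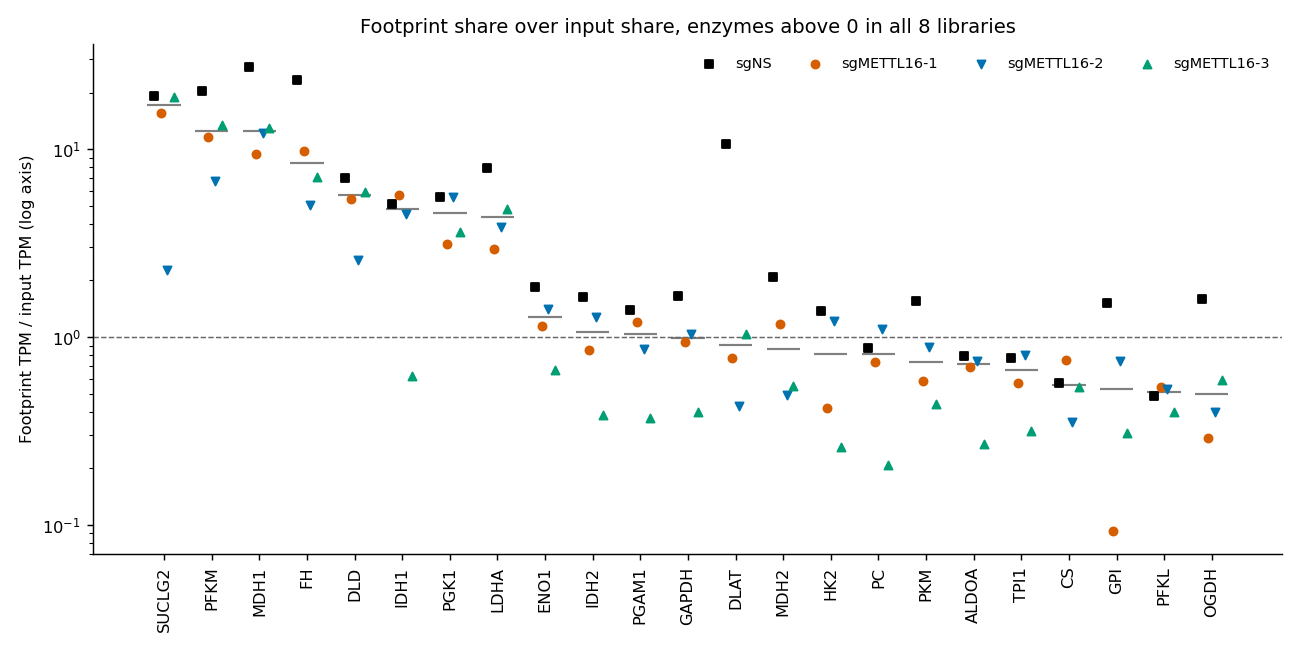
Footprint TPM divided by input TPM in each culture (log axis) for the 23 enzymes above 0 in all 8 libraries, ordered by their median (grey bar); the dashed line marks equal shares. SUCLG2, PFKM, MDH1 and FH lie highest, with medians of 17.2, 12.5, 12.5 and 8.46, and PFKL and OGDH lowest, with medians of 0.507 and 0.496.

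The order of the enzymes within a culture does not depend on how libraries are scaled to each other. It does depend on the translated share of each transcript's length, for which no correction was made. Among the 23 above 0 in every library, PGK1 had footprint to input ratios of 3.14 to 5.58 and LDHA of 2.94 to 7.92. Their neighbours in the pathway were lower: TPI1 ranged from 0.314 to 0.804, ALDOA from 0.27 to 0.797 and GAPDH from 0.397 to 1.66. Glycolysis was thus not uniform, as PGK1 and LDHA exceeded TPI1, ALDOA and GAPDH in all 4 cultures. The median protein-coding gene with a footprint and an input of 1 TPM or more had a ratio of 3.56 in sgNS and of 1.59, 1.27 and 1.53 in the sgMETTL16 cultures.

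For 3 isozyme pairs above 0 in all 8 libraries, chosen with their values known, the ratio was compared between footprints and input within the 4 cultures. An exact two-sided permutation test within 4 pairs cannot go below p = 0.125, so no pair could pass. The MDH2 to MDH1 ratio was 5.73, 4.83, 3.47 and 9.09 in the inputs and 0.44, 0.599, 0.14 and 0.385 in the footprints, in culture order. The ranges did not overlap, and the mean log2 difference was -3.98, lower in 4 of 4 cultures (exact permutation p = 0.125, adjusted over the 3 pairs 0.125). The PFKL to PFKM ratio was from 22.3 to 43.6 in the inputs and from 1.03 to 2.07 in the footprints (log2 difference -4.64, lower in 4 of 4 cultures, exact permutation p = 0.125, adjusted 0.125), on footprints that may rest on few reads. The IDH2 to IDH1 ratio was lower in the footprints of all 4 cultures, but the ranges overlapped, with 0.771 to 2.50 in inputs and 0.186 to 1.55 in footprints (log2 difference -1.72, exact permutation p = 0.125, adjusted 0.125).

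**Figure D4:**
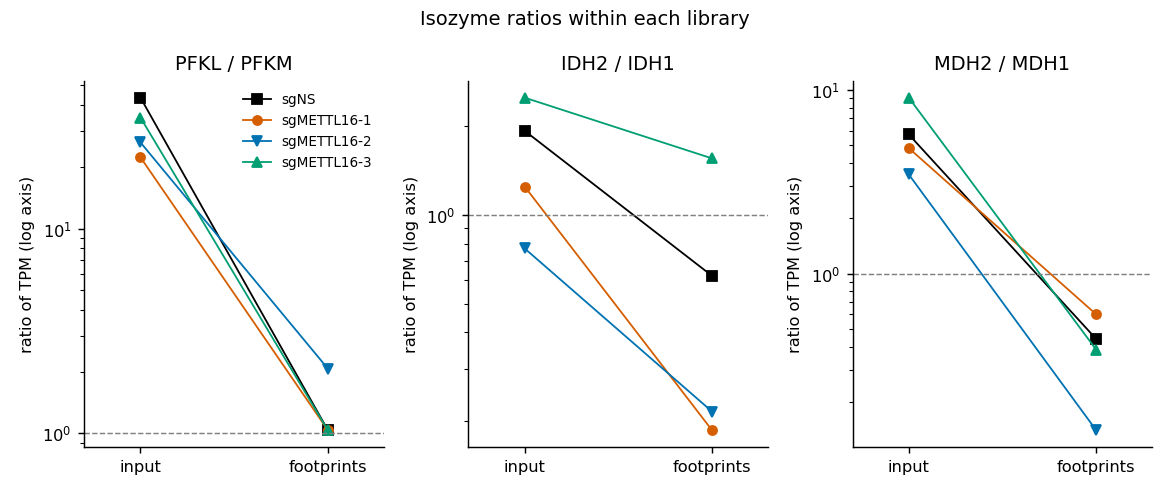
Ratio of TPM within each library for PFKL to PFKM, IDH2 to IDH1 and MDH2 to MDH1 (log axes), with a line joining the input and the footprints of 1 culture. All 12 lines end lower in the footprints than in the input, and the MDH2 to MDH1 ratio crosses 1 in each culture.

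Footprint to input ratios and the spread of the inputs ran together across the enzymes. Over 27 enzymes with sgNS footprints and an input of 1 TPM or more in every library, the ratio in the sgNS culture and the sgMETTL16-2 to sgMETTL16-3 input ratio, which come from different libraries, had a Spearman rho of 0.75. The 12 enzymes with a footprint to input ratio over 3 had input ratios between the 2 cultures of 1.66 to 3.61 (median 2.79), and the 6 with one under 1 had input ratios of 0.974 to 1.51 (median 1.07). With the sgMETTL16-1 culture in place of sgNS the rho was 0.73 over 29 enzymes. There the input ratios overlapped, at 1.11 to 3.61 (median 2.97) for the 10 enzymes over 3. For the 15 enzymes under 1 they were 0.974 to 1.78 (median 1.11). The enzymes were not apart in this: over 3665 protein-coding genes the rho in the sgNS culture was 0.69. Genes within a library are not independent, so these are descriptions.

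**Figure D5:**
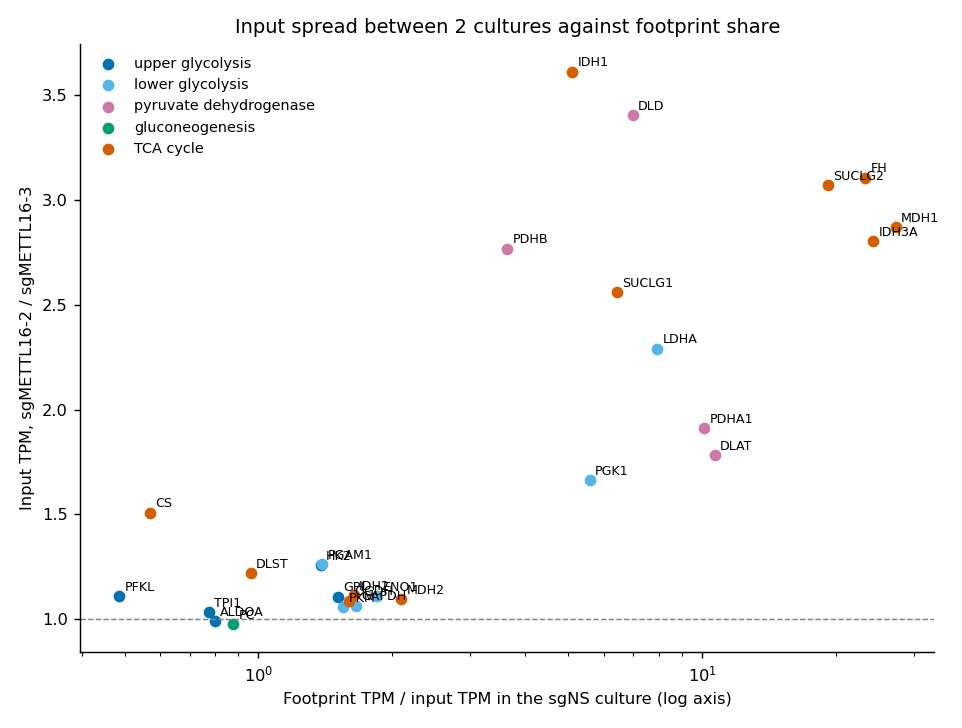
Footprint TPM over input TPM in the sgNS culture (log axis) against the ratio of input TPM between sgMETTL16-2 and sgMETTL16-3, 1 point per enzyme (27 enzymes), coloured by role. Enzymes under 3 on the horizontal axis lie between 0.974 and 1.51 on the vertical, while TCA cycle, pyruvate dehydrogenase and 2 glycolytic enzymes at higher footprint shares lie between 1.66 and 3.61.

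Other genes of the pathway came from lists chosen with earlier results of these data known. Glucose and lactate transport had 1 of 7 tested genes past the threshold in the input. SLC2A2, the low-affinity glucose carrier of liver (GLUT2), rose from 1.14 TPM in sgNS to 9.38, 12.8 and 4.49 TPM in sgMETTL16 (limma log2 change 1.58, SE 0.36, adjusted p = 0.000945). Every sgMETTL16 culture was above the control, which was so for 64.1% of all tested genes on TPM as deposited. SLC2A1, the widespread carrier GLUT1, was at 103 TPM in sgNS, against 90.1, 88.8 and 74.2 TPM in sgMETTL16 (limma log2 change -0.82, adjusted p = 0.425), and SLC2A3 and SLC2A4 had changes of -0.74 and -0.73 without passing. The SLC2A2 call was lost without sgMETTL16-1 (limma adjusted p = 0.186), on TPM as deposited (0.259), with a pseudocount of 10 (0.0604) and rescaled to protein-coding genes (0.107), with a positive change in each.

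Of the 8 tested genes of other gluconeogenic or insulin-repressed liver genes 1 passed, IGFBP1, an insulin-repressed binding protein of insulin-like growth factors, which rose from 42.2 TPM in sgNS to 329, 395 and 292 TPM in sgMETTL16, by 2.43 on the log2 scale (SE 0.43, limma adjusted p = 3.29e-06). G6PC, which releases free glucose from liver cells, was at 3.46 TPM in sgNS, against 21.6, 9.23 and 8.93 TPM in sgMETTL16, with a log2 change of 1.04 (SE 0.37, limma adjusted p = 0.131). All 3 sgMETTL16 inputs were above the control, as they were for PCK1 and, on TPM as deposited, for 64.1% of all tested genes. FOXO1 (0.34) and SLC37A4 (-0.65) did not pass either.

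Of 13 tested hypoxia genes outside glycolysis 1 passed. HIF1A, the oxygen-regulated transcription factor subunit that acts on many glycolytic genes, rose from 5.12 TPM in sgNS to 16.2, 42.1 and 16.7 TPM in sgMETTL16 (limma log2 change 1.42, SE 0.38, adjusted p = 0.0103). Without sgMETTL16-1 or sgMETTL16-2 it did not pass (limma adjusted p = 0.176 and 0.0609), nor on TPM as deposited (0.292) or rescaled to protein-coding genes (0.228). The list's median was 0.37, with 12 of 13 above 0, against 43% of all tested genes. Values of ADM (0.89) and NDRG1 (0.85) were above 0, while CA9, a classic hypoxia target, was at 1.31 TPM in sgNS, against 1.58, 0.34 and 0.90 TPM in sgMETTL16 (limma log2 change -0.83, adjusted p = 0.0881). Over the glycolytic enzymes, as given above, 15 of 15 tested were below 0 on the same centred scale, against 57% of all tested genes. Signs on this scale rest on the centring, and a link between HIF1A and these enzymes was not tested.

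No gene passed among 14 tested isozymes and regulators of glycolysis, 8 genes of pyruvate entry and its control or 16 other TCA cycle and linked enzymes. Their median log2 changes were 0.04, -0.16 and -0.03. HKDC1, a hexokinase-related gene, was at 4.42 TPM in sgNS, against 13.0, 17.3 and 14.5 TPM in sgMETTL16 (limma log2 change 1.02, SE 0.38, adjusted p = 0.151). MPC1, a subunit of the mitochondrial pyruvate carrier, was at 10.7, 36.0, 48.3 and 14.3 TPM (limma log2 change 0.85, adjusted p = 0.341), with sgMETTL16-3 nearest to the control. Other genes with the smallest p in these lists were PFKFB1 (0.37), PFKFB4 (-0.60), PGM1 (-0.60), PDK3 (-0.71), PDHX (0.31), PDP2 (0.26), GOT1 (0.53), SDHD (0.45) and SLC25A10 (-0.53), where the value is the log2 change.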

How the data were processed

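Input RNA and ribosome footprints of 4 cultures were sequenced as 51-base single-end reads after depletion of ribosomal RNA, per the labels' protocols. The authors' deposited values are TPM per gene and library, and the submitters' processing notes name STAR, RSEM 1.2.31 and the GRCh38 build. TPM divides by transcript length, while footprints come from translated parts, and it sums to a fixed total per library. Totals of reads were not used here, so depth is unknown. Gene types came from RefSeq (GRCh38.p14), where 23987 symbols matched by name, 1395 by an older name and 1448 not.

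Groups were taken from sample titles. Under R 4.3.3, limma 3.58.1 was fitted to log2(TPM + 1) values, with a mean TPM filter of 1, an intensity trend and Benjamini-Hochberg adjustment over all tested genes. Input libraries were centred on the median tested gene, and footprints were scaled by the median ratio over the 1870 genes above 0 in all 4, because the median tested gene is at 0 in some footprint libraries. The fits were tested on simulated data drawn from input means, with no value at 0. That test does not cover footprint values listed at 0. Input and footprints of a culture come from one sample by the series' design. Deviations of the same sgMETTL16 culture from the group mean correlated at 0.05, 0.01 and 0.06 between the kinds (8002 genes), and the culture was a replicate block in an alternative.

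The members follow a rule on gene names, but that rule and the lists were chosen with earlier results of these data known. Fitted statistics are given for enzymes past the threshold and for the 6 with the smallest p in a comparison, values for isozymes and complex subunits, and for other lists the called genes and up to 4 by smallest p. A few further values, such as those of PC and GAPDH, were chosen after they were seen. The alternatives were other pseudocounts, filters, scalings and variance models, the replicate block, and leaving out each culture. A few genes are not reported here.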

Additional observations from a re-analysis of the deposited data

How the results depend on the processing

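In the input, 310 genes passed and 23 did on TPM as deposited (22 higher), 104 rescaled to protein-coding genes (62 higher, 42 lower), and 110 to 664 without 1 sgMETTL16 culture. The count of enzymes was 0 with the settings of the report, 1 with a filter of 10 TPM and from 0 to 2 without 1 culture (2 without sgMETTL16-3). In the footprints, 608 genes passed and 146 did with a filter of 10 TPM, 0 without the intensity trend, 0 when centred on the median tested gene and 0 without any 1 sgMETTL16 culture, while enzymes stayed at 0 in all of these. For translation efficiency the 59 genes became 695 with a pseudocount of 0.1, 7 with one of 10, 33 with no filter, 104 with a filter of 10 TPM, 14 on deposited TPM, 500 (220 higher, 280 lower) rescaled to protein-coding genes, 8 without the trend, 0 without any 1 sgMETTL16 culture and 0 with the replicate block; 1 enzyme passed with a pseudocount of 0.1. For footprints against input the 2343 genes became 733 with a pseudocount of 0.1, 692 with a filter of 10 TPM, 540 on deposited TPM, 436 rescaled to protein-coding genes (257 higher, 179 lower) and from 54 to 462 without 1 culture. The 15 enzymes became 6 with a pseudocount of 0.1, 4 on deposited TPM, 4 rescaled, 7 with the replicate block and from 0 to 1 without 1 culture. On TPM as deposited, enzymes above 0 went from 11 to 33 of 36 in the input, from 19 to 9 of 35 in the footprints and from 18 to 7 of 33 in translation efficiency, and with median centring 3 of 35 were above 0 in the footprints. Among genes named for a small p, the sign changed on TPM as deposited for PCK2 (0.027), HK2 (0.066) and IDH3B (0.076) in the input and CS (-0.12) in translation efficiency, with a pseudocount of 10 for PFKFB1 in the input (-0.0073), and with median centring for DLD in the footprints (-1.74). With the 8 libraries taken as independent, an alternative added after seeing the data (no replicate block), the MDH2 to MDH1 and PFKL to PFKM ratios had an exact permutation p of 0.0286 (adjusted 0.0429) and the IDH2 to IDH1 ratio one of 0.114. The value of 0.0286 is the smallest this version can give. It ignores that input and footprints of a culture come from one sample, and the pairs were chosen with their values known. It is therefore not taken as a call. Fewer cultures leave fewer degrees of freedom; the cause of the other shifts was not tested. The limits are the lone control culture, the unknown depth and footprint values that may rest on few reads.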

Other observations

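LDHB, the lactate dehydrogenase subunit that favours lactate oxidation, had an input value of 0 in every culture, while its footprints were 88.1, 46.5, 16.1 and 65.99 TPM in culture order. Scaled by the ratios that recur between footprint libraries, these values stood at 2 to 2 to 1 to 3. LDHA was from 4.70 to 35.3 times LDHB in the footprints. It was picked out after its values were seen, from the list of other glycolytic isozymes.

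GOT1 and GOT2 interconvert aspartate and oxaloacetate and connect the TCA cycle to amino acids. GOT1 footprints were 26.99 TPM in sgNS, against 185, 287 and 94.3 TPM in sgMETTL16, all above the control, with inputs of 26.0, 69.9, 62.3 and 39.1 TPM. The footprint log2 change was 3.15 (SE 0.50, limma adjusted p = 0.119) and the change in translation efficiency was 2.62 (SE 0.69, limma adjusted p = 0.121), so neither passed. GOT2 footprints were at 49.2, 77.9, 54.0 and 0 TPM in the same order. G6PC3, a widespread glucose-6-phosphatase, was listed at 0 in the sgNS footprints and at 20.9, 43.5 and 19.8 TPM in sgMETTL16 (limma adjusted p = 0.0886 in the footprints and 0.0568 for translation efficiency).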
